A study of Mus musculus and Homo sapiens with 14 samples.

Results

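A set of 40 mouse genes that drive mitosis and guard the spindle was followed by its symbols through the tumour and EG7 count tables of a lymphoma study, and all 40 were found in both, among 50559 gene entries for the tumours and 55969 for the EG7 cells. The set covers 9 roles: cyclins with their kinase and activators, other mitotic kinases, the spindle checkpoint, the centromere and kinetochore, the chromosomal passenger complex, spindle motors and binding proteins, entry into anaphase, cytokinesis, and a pair of chromosome proteins. The rule names the members by function and no measured value enters it, though the members were chosen with earlier results of these data known. RNA sequencing was done on 10 libraries in 5 groups of 2. The tumours were grown from EL4, a lymphoma line of mouse T cells, carry wild-type genotype labels and are called P3 or P0, and the labels say neither what P3 and P0 stand for nor the age or strain of the host. EG7-OVA, a wild-type mouse T-cell lymphoma line derived from EL4 that carries an ovalbumin gene, was given azacytidine at 1.5 µM, decitabine at 0.2 µM or the solvent DMSO at 0, 24 and 48 h, with harvest at 72 h. Azacytidine is an analogue of cytidine and decitabine one of deoxycytidine, and both trap DNA methyltransferases on DNA. Nothing says that the 2 libraries of a group came from separate tumours or cultures, so p-values reflect only how far these libraries spread, which may be technical. The DMSO libraries are called first and second by their library names.

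Mitosis is driven by CDK1 bound to cyclins A and B, which CDC25 phosphatases switch on and the anaphase-promoting complex ends by sending cyclin B and securin to destruction. Until every kinetochore is held by spindle fibres, the checkpoint proteins MAD2, BUBR1 and BUB3 hold back CDC20, the activator of that complex, so that the chromosomes do not part too soon. The genes are transcribed together late in the cell cycle, through MuvB complexes with B-MYB and FOXM1, and are kept silent in resting cells by the DREAM complex. Their RNA is therefore widely read as a sign of how many cells of a sample are dividing. In bulk RNA, fewer cells in mitosis and less RNA per cell cannot be told apart.

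The promoters of these genes are known for CCAAT boxes, bound by NF-Y, and for the cell cycle genes homology region, TTTGAA or less often TTCGAA, bound by MuvB. Windows from 250 bases before to 50 after a transcription start were taken from RefSeq on GRCm38.p6, and 33 of the 40 members had one. CCAAT, read on both strands (as ATTGG on the other), was present in 25 of 33 members (75.8%), against 41.1% of 27025 genes in the whole promoter table. TTTGAA or TTCGAA, on both strands, was present in 25 members (75.8%), against 21.7% of all genes. Both motifs together were found in 22 members (66.7%) and in 8.61% of all genes, and 2 or more CCAAT copies in 17 members (51.5%) and 13.3% of all genes. Copies of the 2 motifs can share at most 1 base. A match describes letters and is no proof of binding. The windows of Pttg1, Kif2c and Kif4 lie wholly inside the GENCODE vM21 span of their gene. Sequence upstream of that span was therefore not searched for these genes. The windows below are shown because they span the range of the set: Ccnb2 and Cdk1 with several copies of each, Espl1 with 1 of each, Pttg1 with neither, and Cdc25b, which holds both motifs yet was the member that stood above DMSO with both drugs. Each is written 5′ to 3′ on the gene's own strand, with every copy of a motif in capitals.
Ccnb2, chr9:70421505-70421804, minus strand: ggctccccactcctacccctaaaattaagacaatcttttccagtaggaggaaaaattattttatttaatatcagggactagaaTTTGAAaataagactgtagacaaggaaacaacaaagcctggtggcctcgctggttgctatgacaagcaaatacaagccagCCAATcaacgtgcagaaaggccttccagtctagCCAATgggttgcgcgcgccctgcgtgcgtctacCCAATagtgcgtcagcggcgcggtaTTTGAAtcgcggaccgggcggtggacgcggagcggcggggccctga
Cdk1, chr10:69352863-69353162, minus strand: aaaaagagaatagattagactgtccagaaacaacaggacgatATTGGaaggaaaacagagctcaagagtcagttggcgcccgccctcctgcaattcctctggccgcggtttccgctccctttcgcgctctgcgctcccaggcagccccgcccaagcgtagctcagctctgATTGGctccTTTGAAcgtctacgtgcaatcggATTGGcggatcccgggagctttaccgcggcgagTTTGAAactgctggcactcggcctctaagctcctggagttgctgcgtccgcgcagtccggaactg
Espl1, chr15:102296043-102296342, plus strand: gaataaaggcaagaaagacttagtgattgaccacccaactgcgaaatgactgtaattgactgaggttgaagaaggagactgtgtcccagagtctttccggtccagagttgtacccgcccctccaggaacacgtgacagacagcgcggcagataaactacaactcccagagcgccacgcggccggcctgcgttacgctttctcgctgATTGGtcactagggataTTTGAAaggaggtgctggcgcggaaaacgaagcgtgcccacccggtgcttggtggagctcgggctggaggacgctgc
Pttg1, chr11:43425932-43426231, minus strand: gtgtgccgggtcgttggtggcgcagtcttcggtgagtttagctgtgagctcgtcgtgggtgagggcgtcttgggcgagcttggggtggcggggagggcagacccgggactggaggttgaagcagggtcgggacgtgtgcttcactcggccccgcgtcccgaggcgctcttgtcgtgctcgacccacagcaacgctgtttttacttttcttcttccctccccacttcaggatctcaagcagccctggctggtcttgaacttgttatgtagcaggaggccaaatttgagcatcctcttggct
Cdc25b, chr2:131186698-131186997, plus strand: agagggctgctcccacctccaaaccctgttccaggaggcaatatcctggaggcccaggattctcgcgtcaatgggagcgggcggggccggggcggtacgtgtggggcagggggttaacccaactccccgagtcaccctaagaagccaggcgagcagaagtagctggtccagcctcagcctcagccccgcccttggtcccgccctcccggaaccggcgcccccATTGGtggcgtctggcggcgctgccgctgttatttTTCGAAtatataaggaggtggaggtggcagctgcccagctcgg

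Total counts ran from 21621580 to 22899073 in P3 and from 21926990 to 25328708 in P0 tumours, and from 15690747 to 16515050 with azacytidine, 18341509 to 19414060 with decitabine and 19116049 to 21048979 with DMSO. Levels are CPM, counts scaled to library size with TMM factors within a table, the tables were scaled apart, and no test runs between tumours and cultured cells. All 9 T-cell markers had reads in all 10 libraries, summing to 4421 and 4226 CPM in P3, 4426 and 4241 in P0, 3325 and 3344 with azacytidine, 3971 and 4226 with decitabine and 3871 and 3497 with DMSO. Changes are log2 fold changes ± SE from edgeR's quasi-likelihood test with n = 2 libraries per group, called at an adjusted p of 0.05 over all genes of the table. Gene positions are those of GENCODE vM21 on mm10.

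Most mitosis genes of EG7-OVA cells were lower with both drugs, across cyclins, kinases, checkpoint, motors and cytokinesis. Summed over the 40 members, the level was 4447 and 4361 CPM with azacytidine and 4995 and 3834 CPM with decitabine, against 7662 and 6589 CPM with DMSO. All 4 drug libraries lay below both DMSO libraries. With azacytidine, 30 of 40 members fell and 0 rose, where 20.3% of 19123 genes tested were called, 6.7% lower and 13.6% higher. With decitabine, 30 fell and 0 rose, where 16.7% of all genes were called, 4.3% lower and 12.4% higher. The median log2 fold change of the members was -0.78 with azacytidine and -0.76 with decitabine, against medians over all genes of 0.03 and 0.04, and 39 of 40 members were below 0 with either drug. Both comparisons share the DMSO libraries. In EL4 tumours the members summed to 4258 and 4444 CPM in P3, below the 5189.8 and 4844 CPM of P0, and 20 of 40 fell while 0 rose, where 38.7% of 19993 genes were called, 19.9% lower and 18.8% higher. The median was -0.38 against -0.0019 over all genes, and 35 members were below 0. Of the 20 members that fell in P3, 15 (75%) also fell with azacytidine, which is 50% of those 30, and 14 (70%) with decitabine, which is 46.7% of those 30. Of all 40 members 30 is likewise 75%, and the tumour and EG7 comparisons share no library.

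How many members were called depended on single libraries, and how many were below 0 hardly did. Calls over all genes are set beside the member calls only for the fits without a P0 library. For the other fits a change in calls is therefore not shown to be particular to the mitosis genes. In edgeR the number of azacytidine calls was 8 without the first azacytidine library, 12 without the second and 17 without the first DMSO library. The number of decitabine calls was 4 without the second decitabine library and 7 without the first DMSO library. In tumours 0 members were called without either P0 library (9 without the first and 17 without the second had an unadjusted p under 0.05), when edgeR called 0 of all genes and DESeq2 called 0 and 4 members, 31 without the second P3 library and 12 with a replicate block. Members below 0 numbered 34 or 35 in those tumour fits, 39 in the azacytidine fits and 38 or 39 in the decitabine fits.

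**Figure D1:**
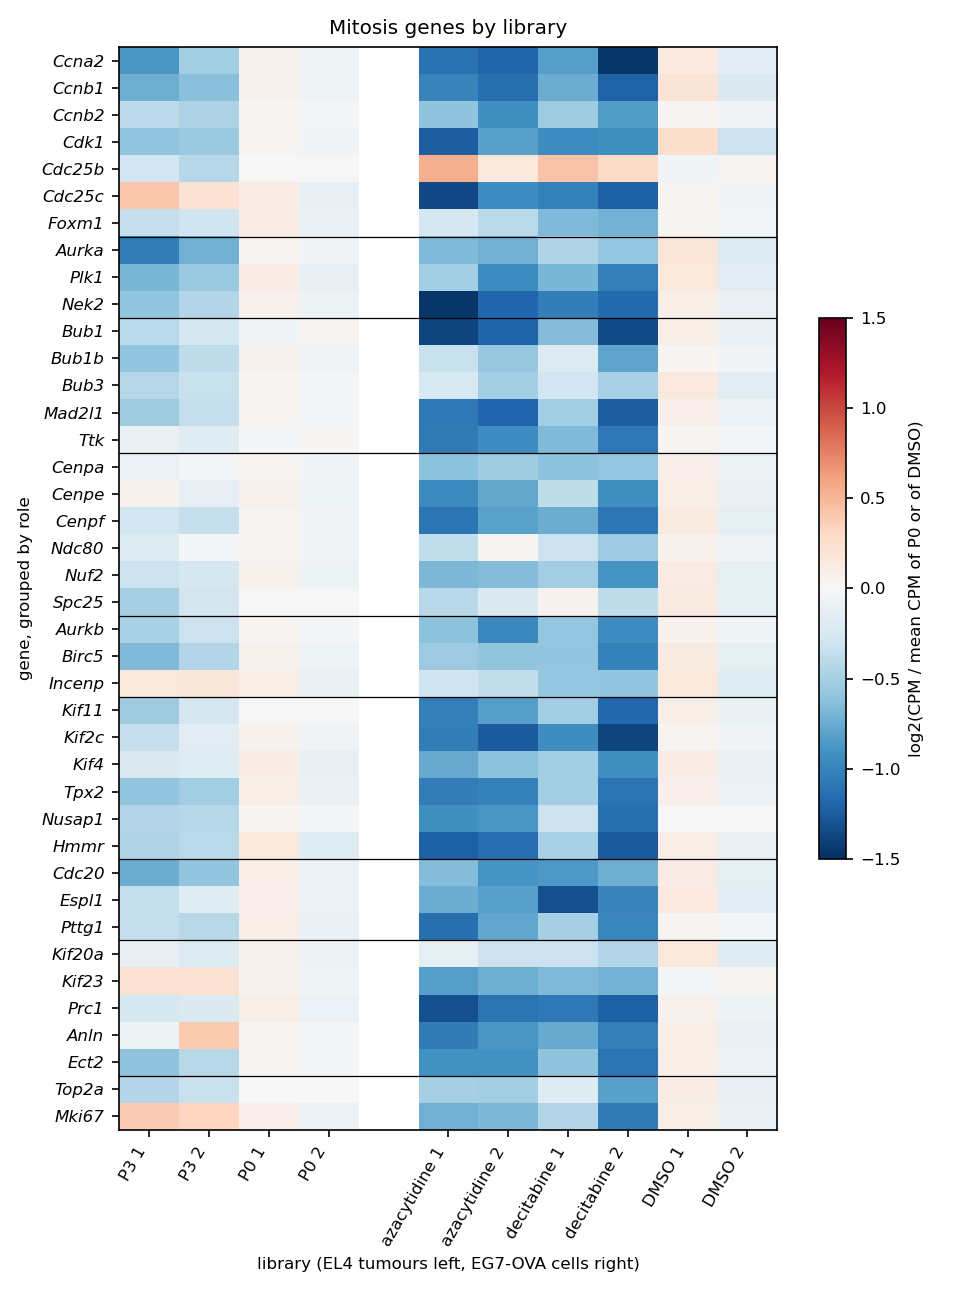
Level of each of the 40 genes (rows, grouped by role) in each library (columns) as log2 of its CPM over the mean CPM of P0 for tumours and of DMSO for EG7-OVA cells, blue for lower and red for higher. Most rows are blue in the 4 drug libraries, with Cdc25b red in all 4, and paler blue in the P3 libraries.

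Cyclins and the kinase they switch on fell in all 3 comparisons. Ccnb1 (chr13:100778650-100786570), cyclin B1, stood at 99.1 and 90.5 CPM with azacytidine and 119 and 86.1 with decitabine, against 227 and 171 CPM with DMSO (-1.07 ± 0.21, adjusted p = 0.00575 and -0.95 ± 0.21, adjusted p = 0.0118, azacytidine before decitabine here and throughout). In tumours it stood at 71.1 and 76.9 CPM in P3 and 123 and 113 CPM in P0 (-0.68 ± 0.09, adjusted p = 0.00567). No drug library reached a DMSO library, and no P3 library reached a P0 one. Cdk1, the kinase itself, was at 102 and 137 CPM with azacytidine and 125 and 127 with decitabine, against 289 and 192 CPM with DMSO (-1.01 ± 0.22, adjusted p = 0.0105 and -0.94 ± 0.22, adjusted p = 0.0174), and at 83.1 and 85.1 CPM in P3 tumours, with 129 and 121 CPM in P0 (-0.57 ± 0.09, adjusted p = 0.00682). The DMSO pair was far apart for this gene, yet both stood above the drug libraries. Ccna2, cyclin A2, had 62.5 and 58.8 CPM with azacytidine and 76.5 and 49.3 with decitabine, against 149.7 and 121 with DMSO (-1.16 ± 0.22, adjusted p = 0.00521 and -1.11 ± 0.22, adjusted p = 0.00779), and 44.4 and 56.9 in P3 against 84.8 and 77.4 in P0 (-0.68 ± 0.14, adjusted p = 0.017). Ccnb2, cyclin B2, changed by -0.75 ± 0.19, -0.68 ± 0.18 and, in P3, -0.43 ± 0.09, and was called each time. Reads of Ccnb1 and Ccnb2 may be shared with the pseudogenes Ccnb1-ps and Ccnb2-ps that the tables list, and Ccna2 overlaps Exosc9 on the other strand, with strand use in counting not stated.

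The CDC25 phosphatases, which activate CDK1, gave different values. Cdc25c had 17.2 and 23.0 CPM with azacytidine and 21.7 and 18.9 with decitabine, against 45.1 and 42.7 CPM with DMSO (-1.12 ± 0.21, adjusted p = 0.00495 and -1.12 ± 0.21, adjusted p = 0.00593). Its P3 libraries held 35.1 and 31.0 CPM, with 28.8 and 24.5 CPM in P0 (0.31 ± 0.14, adjusted p = 0.118), with P3 above P0 but the difference short of the threshold. Cdc25b had 211 and 161 CPM with azacytidine and 193 and 176 with decitabine, against 139.9 and 149 CPM with DMSO (0.37 ± 0.18, adjusted p = 0.183 and 0.36 ± 0.18, adjusted p = 0.215). All 4 drug libraries were above both DMSO libraries, which holds for no other member, and neither difference passed. Of all genes tested, 33.6% lay above DMSO in this way with azacytidine and 33.2% with decitabine. In P3 it fell, with 118 and 107 CPM, with 145 and 142 CPM in P0 (-0.35 ± 0.09, adjusted p = 0.0325). Foxm1, the transcription factor that drives many genes of the set, had 122 and 111 CPM with azacytidine (-0.33 ± 0.15, adjusted p = 0.162) and 92.8 and 90.0 with decitabine (-0.69 ± 0.15, adjusted p = 0.0137), against 150.1 and 144 CPM with DMSO. It passed with decitabine, and in P3 its 95.5 and 99.0 CPM, with 131 and 113 CPM in P0 did not pass (-0.33 ± 0.11, adjusted p = 0.058).

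All 3 other mitotic kinases fell in P3 and with azacytidine, and 2 of 3 with decitabine. Of all genes tested, 19.9% fell in P3, 6.7% with azacytidine and 4.3% with decitabine. Plk1, polo-like kinase, which acts from entry into mitosis to cytokinesis, had 90.6 and 66.996 CPM with azacytidine and 80.4 and 63.6 with decitabine, against 144 and 114 CPM with DMSO (-0.71 ± 0.21, adjusted p = 0.0373 and -0.84 ± 0.21, adjusted p = 0.0213). In P3 it had 59.7 and 65.1 CPM, with 104 and 88.5 CPM in P0 (-0.62 ± 0.11, adjusted p = 0.0117). Aurka (chr2:172356190-172370535), the Aurora kinase of spindle poles, had the lowest fold change of the set in tumours, with 20.4 and 25.5 CPM in P3 tumours, with 43.1 and 40.7 CPM in P0 (-0.87 ± 0.14, adjusted p = 0.00828). In EG7-OVA cells it stood at 79.9 and 76.7 CPM with azacytidine (-0.69 ± 0.18, adjusted p = 0.0214) and 92.3 and 84.2 with decitabine (-0.51 ± 0.18, adjusted p = 0.0757), against 142 and 109.6 CPM with DMSO. Nek2 (chr1:191821444-191833050), a centrosome kinase, had the lowest fold change of the set with azacytidine, at 12.5 and 15.0 CPM against 36.4 and 31.9 with DMSO (-1.32 ± 0.22, adjusted p = 0.00261), and stood at 16.6 and 15.2 CPM with decitabine (-1.10 ± 0.22, adjusted p = 0.00736). In tumours Nek2 had 19.2 and 21.3 CPM in P3 tumours, with 30.3 and 27.5 CPM in P0 (-0.52 ± 0.13, adjusted p = 0.0278).

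Of the 5 checkpoint members 4 fell in P3 and 3 with either drug. The shares of all genes that fell were 19.9% in P3, 6.7% with azacytidine and 4.3% with decitabine. Bub1, the kinetochore kinase that recruits the others, had 38.0 and 42.7 CPM with azacytidine and 63.1 and 39.0 with decitabine, against 105 and 92.2 CPM with DMSO (-1.29 ± 0.23, adjusted p = 0.00361 and -0.95 ± 0.23, adjusted p = 0.0176), and in tumours 72.3 and 79.4 CPM in P3 tumours, with 92.9 and 97.6 CPM in P0 (-0.33 ± 0.09, adjusted p = 0.0412). Mad2l1, which encodes MAD2, had 63.9 and 58.8 CPM with azacytidine and 94.9 and 57.1 with decitabine, against 142 and 127 CPM with DMSO (-1.13 ± 0.23, adjusted p = 0.00699 and -0.82 ± 0.23, adjusted p = 0.0335). Its P3 libraries held 54.8 and 61.9 CPM, with 80.5 and 77.5 CPM in P0 (-0.44 ± 0.10, adjusted p = 0.0228). For both genes the first decitabine library stood well above the second. Bub1b, which encodes BUBR1, and Bub3 passed in tumours and not with either drug. Bub1b had 103 and 119.9 CPM in P3 tumours, with 161 and 150.4 CPM in P0 (-0.48 ± 0.11, adjusted p = 0.0208), and 139 and 119 CPM with azacytidine (-0.45 ± 0.21, adjusted p = 0.159) and 152 and 101.5 with decitabine (-0.47 ± 0.20, adjusted p = 0.155), against 180.0 and 171 CPM with DMSO. Bub3 had 126 and 134 CPM in P3 tumours, with 172 and 166 CPM in P0 (-0.38 ± 0.09, adjusted p = 0.0219), and 201 and 166 CPM with azacytidine (-0.36 ± 0.18, adjusted p = 0.198) and 192 and 168 with decitabine (-0.39 ± 0.18, adjusted p = 0.187), against 260.0 and 210.4 CPM with DMSO. Every drug library of these 2 genes was below both DMSO libraries, as for 27.4% of all genes with azacytidine and 25.6% with decitabine. Ttk, the MPS1 kinase at the head of the checkpoint, fell with azacytidine (-0.997 ± 0.20, adjusted p = 0.00647) and decitabine (-0.85 ± 0.20, adjusted p = 0.0158) and did not pass in P3 (-0.14 ± 0.10, adjusted p = 0.293).

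Centromere and kinetochore genes gave 1 call of 6 in tumours, a fall, which is near the 19.9% of all genes that fell in P3. Cenpf, a large kinetochore protein, fell, with 131 and 125 CPM in P3 tumours, with 164 and 155 CPM in P0 (-0.32 ± 0.09, adjusted p = 0.036). With azacytidine 4 of 6 fell and with decitabine 3 of 6, against 6.7% and 4.3% of all genes. Cenpa, the histone H3 variant that marks centromeres, had 123 and 130.2 CPM with azacytidine and 122 and 125 with decitabine, against 197 and 178 CPM with DMSO (-0.57 ± 0.15, adjusted p = 0.0268 and -0.60 ± 0.15, adjusted p = 0.0247), while its 55.9 and 58.4 CPM in P3 overlapped the 61.0 and 57.9 CPM of P0 (-0.06 ± 0.09, adjusted p = 0.639). Cenpe, a kinetochore motor, also overlapped in tumours, at 86.1 and 76.0 CPM in P3 and 86.3 and 79.4 CPM in P0 (-0.03 ± 0.10, adjusted p = 0.831), and its log2 fold change was -0.86 ± 0.20, adjusted p = 0.0149 with azacytidine and -0.63 ± 0.20, adjusted p = 0.0612 with decitabine. The members from the NDC80 complex, which grips microtubules, are Ndc80, Nuf2 and Spc25. Nuf2 fell with both drugs (-0.66 ± 0.19 and -0.69 ± 0.19). Ndc80 had 30.4 and 39.8 CPM with azacytidine (-0.16 ± 0.20, adjusted p = 0.628) and 31.3 and 26.8 with decitabine (-0.43 ± 0.20, adjusted p = 0.179), against 40.7 and 37.7 CPM with DMSO. Spc25 had 17.1 and 19.6 CPM with azacytidine (-0.32 ± 0.24, adjusted p = 0.395) and 23.7 and 17.5 with decitabine (-0.15 ± 0.24, adjusted p = 0.729), against 25.03 and 20.7 CPM with DMSO. For Ndc80 the second azacytidine library, and for Spc25 the first decitabine library, lay within the DMSO range.

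Of the chromosomal passenger complex, which corrects faulty attachments, the kinase subunit Aurkb fell in all 3 comparisons. It had 98.9 and 77.4 CPM with azacytidine and 102 and 78.8 with decitabine, against 159 and 144 CPM with DMSO (-0.78 ± 0.19, adjusted p = 0.0171 and -0.75 ± 0.19, adjusted p = 0.0242), and 74.96 and 84.2 CPM in P3 tumours, with 107 and 103 CPM in P0 (-0.40 ± 0.10, adjusted p = 0.0263). Birc5, survivin, had 49.6 and 47.9 CPM with azacytidine (-0.57 ± 0.20, adjusted p = 0.0681) and 48.1 and 35.7 with decitabine (-0.79 ± 0.20, adjusted p = 0.0219), against 79.2 and 65.3 CPM with DMSO, and 41.7 and 48.5 CPM in P3 tumours, with 69.0 and 63.2 CPM in P0 (-0.55 ± 0.12, adjusted p = 0.0174). The scaffold gene Incenp stood in P3 at 135 and 136 CPM, above 129 and 112 CPM in P0 (0.16 ± 0.10, adjusted p = 0.239). With drugs Incenp had 143 and 136 CPM with azacytidine (-0.33 ± 0.17, adjusted p = 0.202) and 118 and 116 with decitabine (-0.59 ± 0.17, adjusted p = 0.04), against 196 and 155 CPM with DMSO.

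Spindle motors and binding proteins fell with the drugs, 6 of 6 with azacytidine and 5 of 6 with decitabine. These compare with 6.7% and 4.3% of all genes. In P3 2 of 6 fell, where 19.9% of all genes did. Kif11, the motor that pushes spindle poles apart, had 121 and 138 CPM with azacytidine and 169.8 and 108 with decitabine, against 260.1 and 229 CPM with DMSO (-0.92 ± 0.22, adjusted p = 0.0147 and -0.81 ± 0.22, adjusted p = 0.029). Its 159 and 194 CPM in P3 lay below the 231 and 229.6 CPM of P0 and just missed the threshold (-0.39 ± 0.12, adjusted p = 0.0504). Kif2c, which takes microtubules apart at centromeres, had 62.5 and 54.2 CPM with azacytidine and 67.4 and 49.7 with decitabine, against 132 and 125 CPM with DMSO (-1.14 ± 0.19, adjusted p = 0.00259 and -1.14 ± 0.19, adjusted p = 0.00315). Hmmr, a spindle-binding protein, had 50.4 and 53.3 CPM with azacytidine and 84.1 and 49.6 with decitabine, against 126 and 109 CPM with DMSO (-1.18 ± 0.24, adjusted p = 0.0067 and -0.81 ± 0.23, adjusted p = 0.0398). The first decitabine library lay between the other 3 drug libraries and DMSO. Tpx2, which activates Aurora A on the spindle, fell in P3, at 89.4 and 94.0 CPM, with 143 and 126 CPM in P0 (-0.56 ± 0.10, adjusted p = 0.0112), and by -1.03 ± 0.21 and -0.78 ± 0.21 with the drugs. Nusap1, which bundles microtubules, fell in P3 (-0.43 ± 0.09) and with azacytidine (-0.89 ± 0.24) and did not pass with decitabine (-0.67 ± 0.24, adjusted p = 0.0852). Kif4, a chromosome-bound motor, fell with both drugs (-0.68 ± 0.19 and -0.70 ± 0.19) and did not pass in P3 (-0.20 ± 0.11, adjusted p = 0.207).

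All 3 genes of anaphase entry fell with both drugs, where 6.7% of all genes fell with azacytidine and 4.3% with decitabine. Cdc20, the activator that the checkpoint holds back, had 146 and 125 CPM with azacytidine and 126 and 138 with decitabine, against 249.9 and 208 CPM with DMSO (-0.76 ± 0.17, adjusted p = 0.0119 and -0.80 ± 0.17, adjusted p = 0.0115), and 89.3 and 99.3 CPM in P3 tumours, with 158 and 139.8 CPM in P0 (-0.66 ± 0.11, adjusted p = 0.00855). Espl1 (chr15:102296266-102324357), separase, which cuts cohesin, had the lowest fold change of the set with decitabine, at 147 and 183 CPM (-1.15 ± 0.18, adjusted p = 0.00244), beside 220.2 and 209 CPM with azacytidine (-0.78 ± 0.18, adjusted p = 0.0143) and 407 and 328 CPM with DMSO. Pttg1, securin, which holds separase in check, had 27.8 and 35.5 CPM with azacytidine and 43.2 and 30.9 with decitabine, against 61.9 and 59.9 CPM with DMSO (-0.94 ± 0.21, adjusted p = 0.0122 and -0.72 ± 0.21, adjusted p = 0.045). In P3 neither separase (-0.27 ± 0.11, adjusted p = 0.11) nor securin, at 22.6 and 21.7 CPM in P3 and 30.9 and 26.9 CPM in P0 (-0.38 ± 0.13, adjusted p = 0.0611), passed. Cdc20 overlaps Elovl1 on the other strand.

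Cytokinesis genes fell with both drugs, 4 of 5 each time, against 6.7% of all genes with azacytidine and 4.3% with decitabine. In P3 1 of 5 fell, near the 19.9% of all genes that did so. Prc1 (chr7:80294450-80316259), which bundles the central spindle, had the smallest adjusted p of the set with either drug, with 42.1 and 48.9 CPM with azacytidine and 49.9 and 45.0 with decitabine, against 110.2 and 99.8 CPM with DMSO (-1.21 ± 0.17, adjusted p = 0.00107 and -1.15 ± 0.17, adjusted p = 0.00167). No drug library reached a DMSO library. Kif20a, a motor of the same midzone, was the exception, at 87.4 and 77.2 CPM with azacytidine (-0.23 ± 0.18, adjusted p = 0.402) and 77.3 and 71.2 with decitabine (-0.38 ± 0.18, adjusted p = 0.182), against 108 and 85.2 CPM with DMSO, and it did not pass in P3 either, with 28.8 and 27.4 CPM, with 33.0 and 30.0 CPM in P0 (-0.16 ± 0.11, adjusted p = 0.288). Ect2, which triggers the contractile ring through RhoA, fell in P3, at 50.2 and 57.0 CPM, with 77.1 and 74.9 CPM in P0 (-0.50 ± 0.10, adjusted p = 0.0157), and by -0.91 ± 0.20 and -0.83 ± 0.20 with the drugs. Kif23, a subunit of centralspindlin, and Anln, which ties actin to the ring, fell with both drugs and were not called in P3. Kif23 had 81.7 and 82.0 CPM in P3 tumours, with 72.8 and 67.01 CPM in P0 (0.23 ± 0.09, adjusted p = 0.0966), and changed by -0.78 ± 0.16 and -0.69 ± 0.16 with the drugs. Anln had 84.8 and 118 CPM in P3 tumours, with 90.5 and 88.9 CPM in P0 (0.18 ± 0.16, adjusted p = 0.422), the second P3 library alone standing above P0, and changed by -0.96 ± 0.18 and -0.88 ± 0.18 with the drugs.

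The chromosome proteins Top2a and Mki67, the genes most used to mark dividing cells, gave different values in tumours. Mki67 (chr7:135689784-135716361), which coats mitotic chromosomes as Ki-67, had 1068 and 1023 CPM in P3 tumours, with 869 and 774 CPM in P0 (0.35 ± 0.13, adjusted p = 0.0788). Both P3 libraries were above both P0 libraries, and though edgeR did not call the difference, DESeq2 (adjusted p = 0.0111) and limma-voom (adjusted p = 0.0422) did. Top2a, topoisomerase II alpha, which untangles sister chromatids, fell, with 524 and 562 CPM in P3 tumours, with 706 and 713 CPM in P0 (-0.39 ± 0.11, adjusted p = 0.0403). With drugs Mki67 fell to 758 and 782 CPM with azacytidine and 922 and 597 with decitabine, against 1329.6 and 1170.4 CPM with DMSO (-0.70 ± 0.22, adjusted p = 0.046 and -0.72 ± 0.22, adjusted p = 0.0477). Top2a had 617 and 604 CPM with azacytidine (-0.51 ± 0.22, adjusted p = 0.126) and 761 and 497 with decitabine (-0.47 ± 0.22, adjusted p = 0.176), against 940.0 and 802 CPM with DMSO, and did not pass with either.

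**Figure D2:**
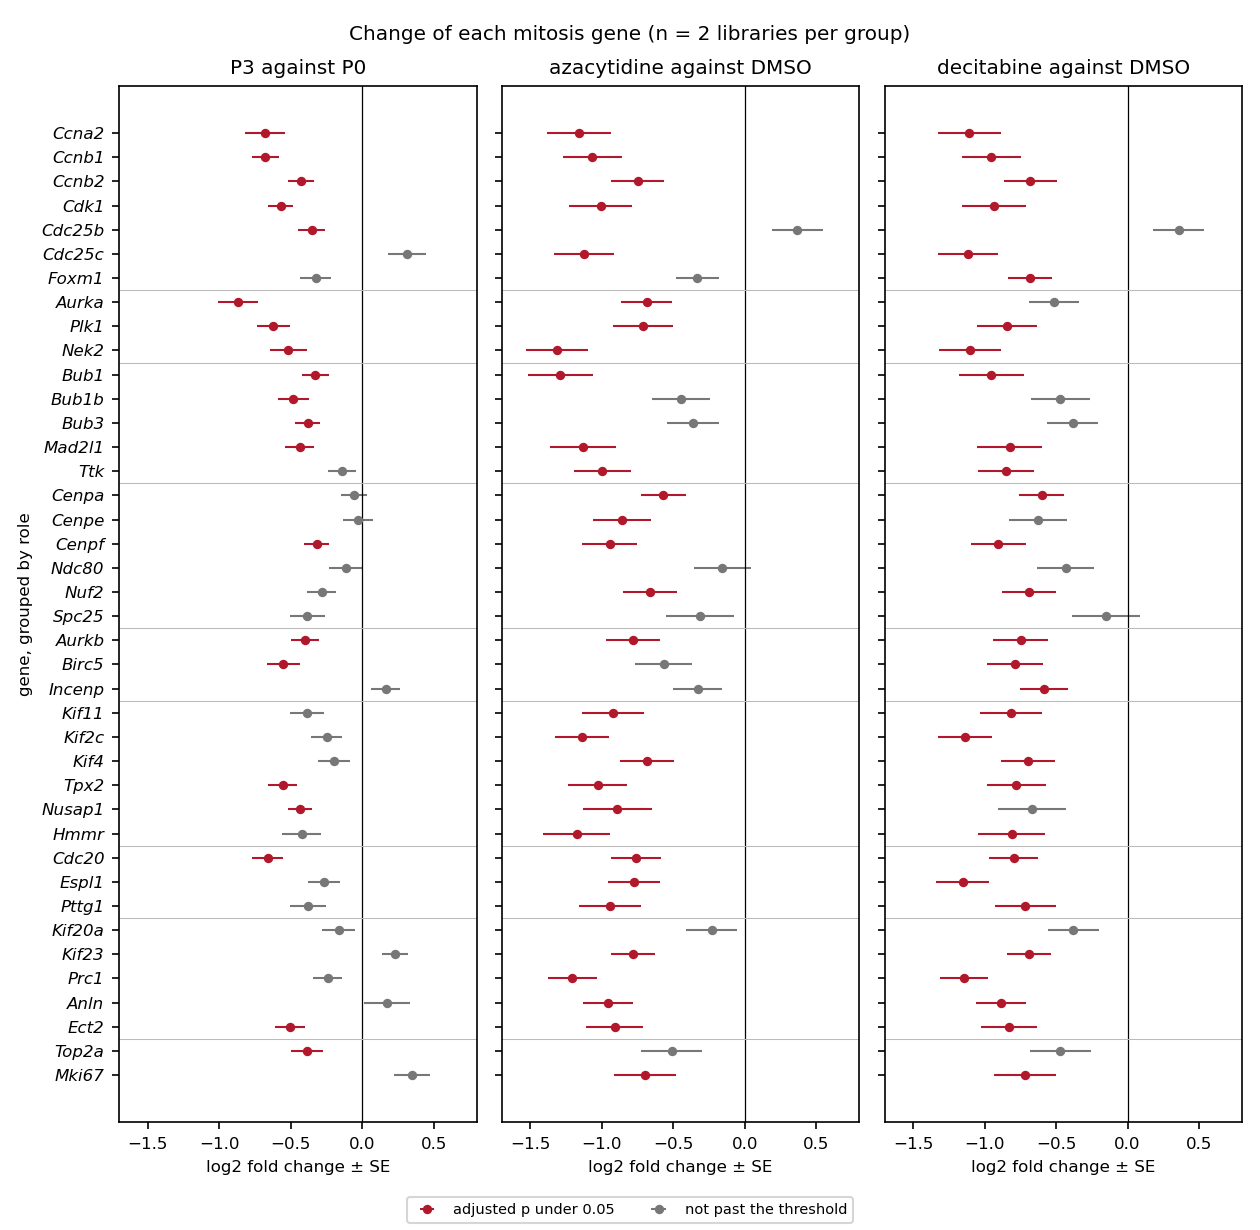
Log2 fold change of each gene (points) with its SE (bars) for P3 against P0, azacytidine against DMSO and decitabine against DMSO, red where the adjusted p was under 0.05 and grey otherwise, 2 libraries per group. Red points number 20, 30 and 30 and all lie below 0, and the drug falls reach below -1 while the lowest P3 value is -0.87.

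Azacytidine and decitabine differ in the sugar, ribose in the first and deoxyribose in the second, and were given at different doses, 1.5 and 0.2 µM, so the molecules cannot be compared at a matched dose. Between the groups as dosed, 0 of 40 members were called and 0 of 19123 genes (0% of those tested) in edgeR. DESeq2 and limma-voom called 0 members too, and DESeq2 called 177 of all genes. In edgeR 1 member had an unadjusted p under 0.05, Foxm1, which was higher with azacytidine than with decitabine (0.35 ± 0.15, adjusted p = 0.758, 95% interval 0.01 to 0.70). For Espl1 the difference was 0.38 ± 0.18, adjusted p = 0.833, with an interval of -0.03 to 0.78, again higher with azacytidine. Hmmr (-0.37 ± 0.23, adjusted p = 0.925, interval -0.89 to 0.16) and Bub1 (-0.34 ± 0.23, adjusted p = 0.939, interval -0.84 to 0.17) were at the other end, and both turned positive without the first decitabine library (0.07 and 0.06). Over the 40 members the lowest bound was -0.89 and the highest 0.78. The direction hung on the decitabine libraries: 25 of 40 members were below 0, 5 without the first decitabine library (median 0.14) and 32 without the second (median -0.22). The groups lay apart, with azacytidine above, for 3 members (Foxm1, Incenp and Espl1), where 17.4% of genes did so, and with azacytidine below for 3 (Aurka, Nek2 and Kif23), where 17.6% did.

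The libraries of 1 group also differed from each other. The first decitabine library held more of 36 of 40 members than the second, with a median log2 ratio of 0.36, where the median over all genes tested was -0.03. The first DMSO library held more of 38 members (median 0.19), and the first P0 library of 36 (median 0.12). The azacytidine pair split 19 to 21 (median -0.02), and in P3 the second library held more of 31 (median of the first over the second -0.08).

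Per kilobase of exon the same 3 members stood highest in every group. Mki67 stood at 104 ± 3.15 CPM per kb in P3 and 81.6 ± 6.73 in P0, and at 76.5 ± 1.65 with azacytidine, 75.5 ± 22.8 with decitabine and 124 ± 11.2 with DMSO (mean ± SD, n = 2 each). Cdc20 stood at 50.5 ± 3.76 CPM per kb in P3 and 79.8 ± 7.01 in P0, and at 72.3 ± 7.97 with azacytidine, 70.5 ± 4.68 with decitabine and 123 ± 15.8 with DMSO. Top2a stood at 60.2 ± 2.97 CPM per kb in P3 and 78.7 ± 0.573 in P0, and at 67.7 ± 0.95 with azacytidine, 69.8 ± 20.7 with decitabine and 96.6 ± 10.8 with DMSO. In P0 and with decitabine these 3 lie within or near each other's spread, so their order there is not settled. With DMSO the ranges of Mki67 and Cdc20 overlapped, and with azacytidine the range of Cdc20 spanned those of Mki67 and Top2a. The place of Cdc20 is thus not settled with azacytidine, nor its order against Mki67 with DMSO. In P3 Mki67 stood clear of both Cdc20 and Top2a. At the low end Nek2 had 4.48 ± 0.327 CPM per kb in P3 and 6.41 ± 0.44 in P0, and 3.04 ± 0.388 with azacytidine, 3.53 ± 0.215 with decitabine and 7.57 ± 0.712 with DMSO. Ndc80 and Cdc25c were its neighbours in most groups. Exon lengths are from GENCODE vM21 and may differ from those the authors counted over.

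In tumours longer members tended to have higher fold changes, with exceptions. Across the 40 genes Spearman's rho between log2 fold change and exon length was 0.55 in P3 against P0 (Pearson's r 0.49), -0.10 with azacytidine and -0.15 with decitabine, all points of a comparison sharing the same libraries. Over protein-coding genes tested, rho in tumours was 0.10. Of the 21 members with up to 4919 exon bases, 14 fell in P3 (median -0.43), and of the 19 longer ones 6 fell (median -0.28). Of the 4 members with both P3 libraries above both P0 libraries, Mki67 and Kif23 are among the longer ones and Cdc25c and Incenp among the shorter. Of all genes tested, 37.6% lay above in this way and 38.5% below, and 32 of the 40 members lay below. With each library's trend on exon length taken out, an alternative chosen after seeing the data, 16 members were called in tumours in place of 20, all lower, and the median was -0.27.

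**Figure D3:**
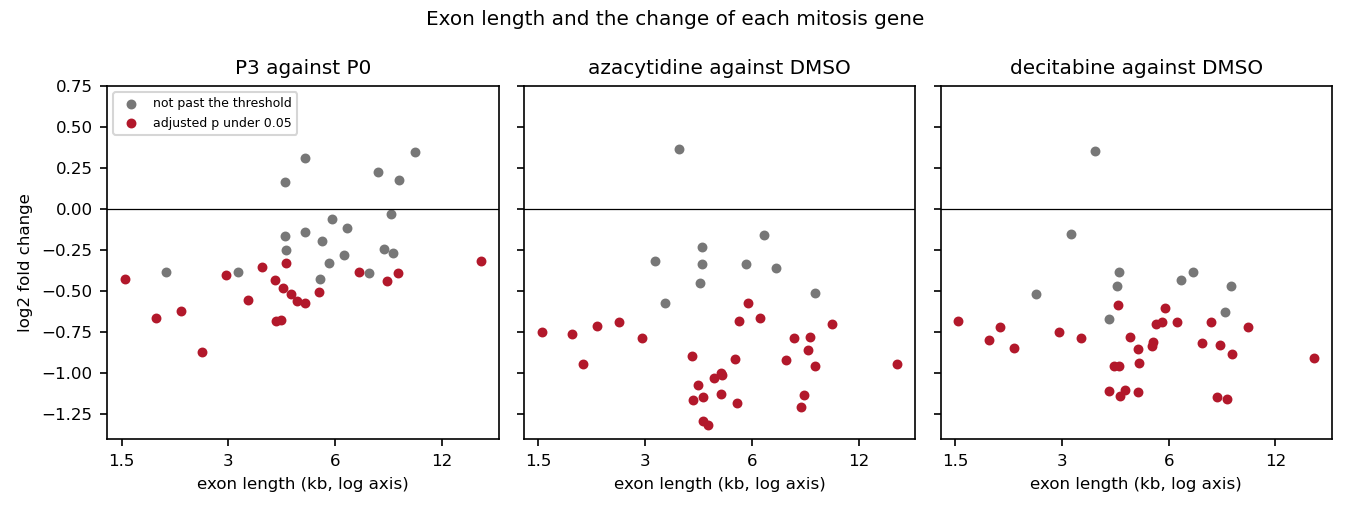
Log2 fold change of each gene against its exon length (kb, log axis) in the 3 comparisons, red where the adjusted p was under 0.05. In P3 the points tend upward with length (rho 0.55), and with the drugs rho is -0.10 and -0.15.

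The calls were also set beside the promoter letters. Of the 22 with both motifs, 17 fell with azacytidine, 16 with decitabine and 12 in P3, with medians of -0.76, -0.76 and -0.38. Of the 11 with a window that lacked 1 or both, 9, 8 and 5 fell, with medians of -0.94, -0.79 and -0.38. Of the 7 without a window, 4, 6 and 3 fell, with medians of -0.78, -0.75 and -0.33. In the same order, 6.7%, 4.3% and 19.9% of all genes tested fell. Cdk1, with several copies of each, and Pttg1, with neither in its window, fell with both drugs. The Pttg1 window lies inside the gene, so what stands upstream of the gene was not read.

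Mitotic genes outside the set are given by lists, here and in the paragraphs that follow. Each count is to be read beside the shares of all genes tested. These were 6.7% lower and 13.6% higher with azacytidine, 4.3% and 12.4% with decitabine, and 19.9% and 18.8% in P3. Of 26 further spindle and cytokinesis genes, 19 fell and 1 rose with azacytidine (median -0.66), 14 fell and 1 rose with decitabine (-0.73), and 3 fell and 2 rose in P3 (-0.20). Aspm, a spindle-pole protein, fell with azacytidine (-1.24 ± 0.22, adjusted p = 0.00334) and Spag5, astrin, with decitabine (-0.86 ± 0.16, adjusted p = 0.00557). The 1 that rose was Psrc1, a microtubule-binding gene also known as a p53 target, with 21.5 and 22.6 CPM with azacytidine and 11.7 and 19.5 with decitabine, against 0.251 and 1.99 CPM with DMSO (4.29 ± 0.64, adjusted p = 0.00142 and 3.78 ± 0.63, adjusted p = 0.00313). In P3, Cit, the citron kinase of cytokinesis (1.03 ± 0.09, adjusted p = 0.0021), and Bora, an activator of Aurora A (0.60 ± 0.10, adjusted p = 0.00836), rose.

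Kinetochore genes outside the set gave 9 lower and 0 higher of 28 with azacytidine (median -0.57), 7 and 0 with decitabine (-0.62), and 6 and 2 in P3 (-0.31). Pmf1, of the MIS12 complex, fell with both drugs (-0.84 ± 0.18, adjusted p = 0.0104 and -1.15 ± 0.19, adjusted p = 0.00264). In P3 Mis18a, which licenses new CENP-A, fell (-1.34 ± 0.14, adjusted p = 0.0027) and Cenpc1, the CENP-C gene, rose (0.81 ± 0.12, adjusted p = 0.00632). Of 9 further checkpoint and cohesion-protection genes, 3 fell and 1 rose with azacytidine, 4 fell and 0 rose with decitabine, and 1 fell and 2 rose in P3. Of all genes, 19.9% fell and 18.8% rose in P3. Kntc1, which encodes ROD and brings dynein to kinetochores, fell with both drugs (-1.10 ± 0.16, adjusted p = 0.00143 and -0.90 ± 0.16, adjusted p = 0.00463) and rose in P3 (0.41 ± 0.10, adjusted p = 0.0245). Mad1l1, the anchor of MAD2 at kinetochores, had 177 and 162 CPM in P3 tumours, with 92.9 and 85.5 CPM in P0 and rose (0.93 ± 0.10, adjusted p = 0.00287), while its partner Mad2l1 fell.

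Condensin and cohesin genes gave 5 lower and 0 higher of 19 with either drug (medians -0.55 and -0.51), and 5 lower and 1 higher in P3 (-0.12). Smc4, a condensin core subunit, fell with azacytidine (-0.95 ± 0.23, adjusted p = 0.0164) and Ncapg2, of condensin II, with decitabine (-0.84 ± 0.19, adjusted p = 0.0136). Genes of the anaphase-promoting complex were mixed, with 3 lower and 1 higher of 18 with azacytidine, 2 and 0 with decitabine, and 6 and 3 in P3. Anapc1, its largest subunit, fell with both drugs (-0.64 ± 0.16, adjusted p = 0.021 and -0.60 ± 0.16, adjusted p = 0.0314), and Anapc11, its RING subunit, rose with azacytidine (1.28 ± 0.23, adjusted p = 0.0038). Ube2c, the ubiquitin-conjugating enzyme of that complex, fell with azacytidine (-0.87 ± 0.23, adjusted p = 0.0223) and in P3 (-0.78 ± 0.13, adjusted p = 0.00952) and did not pass with decitabine (-0.64 ± 0.23, adjusted p = 0.0843). Further CDK regulators gave 6 lower and 0 higher of 10 with either drug and 7 and 0 in P3. Among them were the mitotic kinase gene Pbk (-1.34 ± 0.18, adjusted p = 0.000908, -1.02 ± 0.18, adjusted p = 0.00452 and, in P3, -0.54 ± 0.10, adjusted p = 0.0125) and Pkmyt1, which inhibits CDK1 (-0.81 ± 0.19, adjusted p = 0.0134 and -1.23 ± 0.19, adjusted p = 0.00205).

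Regulators upstream of the set were counted next. Of all genes, 6.7% fell and 13.6% rose with azacytidine, 4.3% and 12.4% with decitabine, and 19.9% and 18.8% in P3. Of 22 E2F, DREAM and NF-Y genes, 3 fell and 2 rose with azacytidine, 5 fell and 1 rose with decitabine, and 3 fell and 4 rose in P3. The P3 counts of this list were near the shares of all genes. Mybl2, B-MYB, the partner of MuvB at these promoters, had 78.3 and 63.1 CPM with azacytidine and 62.0 and 67.8 with decitabine, against 126 and 98.4 CPM with DMSO (-0.67 ± 0.19, adjusted p = 0.0318 and -0.79 ± 0.19, adjusted p = 0.0179), and 72.8 and 78.6 CPM in P3 tumours, with 109.8 and 97.6 CPM in P0 (-0.45 ± 0.10, adjusted p = 0.0208). E2f1 did not pass with azacytidine (-0.31 ± 0.20, adjusted p = 0.307) or decitabine (-0.64 ± 0.20, adjusted p = 0.0526). Rbl1, the pocket protein p107, fell with both drugs (-0.86 ± 0.18, adjusted p = 0.0085 and -1.03 ± 0.18, adjusted p = 0.00413), and Rbl2, p130 of the DREAM complex, rose in P3 (1.17 ± 0.11, adjusted p = 0.00227), as did Rb1 (0.62 ± 0.09, adjusted p = 0.00536). CDK inhibitors and p53 arrest genes gave, with the drugs, 6 higher and 0 lower of 15 tested with azacytidine and 7 and 0 with decitabine. Cdkn1a, which encodes the CDK inhibitor p21, had 375 and 360.2 CPM with azacytidine and 267 and 430.5 with decitabine, against 38.7 and 31.4 CPM with DMSO (3.39 ± 0.25, adjusted p = 3.23e-05 and 3.31 ± 0.25, adjusted p = 4.54e-05). In P3 1 of these 15 rose and 2 fell, and Cdkn1a was at 80.4 and 82.8 CPM against 73.8 and 75.2 CPM in P0 (0.13 ± 0.08, adjusted p = 0.26).

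DNA replication genes were lower too. Of 42, 18 fell and 1 rose with azacytidine (median -0.59), 29 fell and 1 rose with decitabine (-0.79), and 20 fell and 3 rose in P3 (-0.37). Their summed level was 5287 and 4571 CPM with azacytidine and 4688 and 4109 with decitabine, against 8662 and 6627 CPM with DMSO, and 4253 and 4687 CPM in P3 tumours, with 5989 and 5608 CPM in P0. Pold1, the catalytic subunit of DNA polymerase delta, fell with both drugs (-1.11 ± 0.21, adjusted p = 0.00501 and -1.60 ± 0.21, adjusted p = 0.000897), and Gins2, of the replicative helicase, had the smallest p of the list in P3 (-1.12 ± 0.12, adjusted p = 0.00302). Uhrf1, which guides DNMT1 to replicated DNA, had log2 fold changes of -0.33 ± 0.20, adjusted p = 0.288 with azacytidine, -0.80 ± 0.20, adjusted p = 0.0223 with decitabine and -0.79 ± 0.12, adjusted p = 0.00632 in P3.

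**Figure D4:**
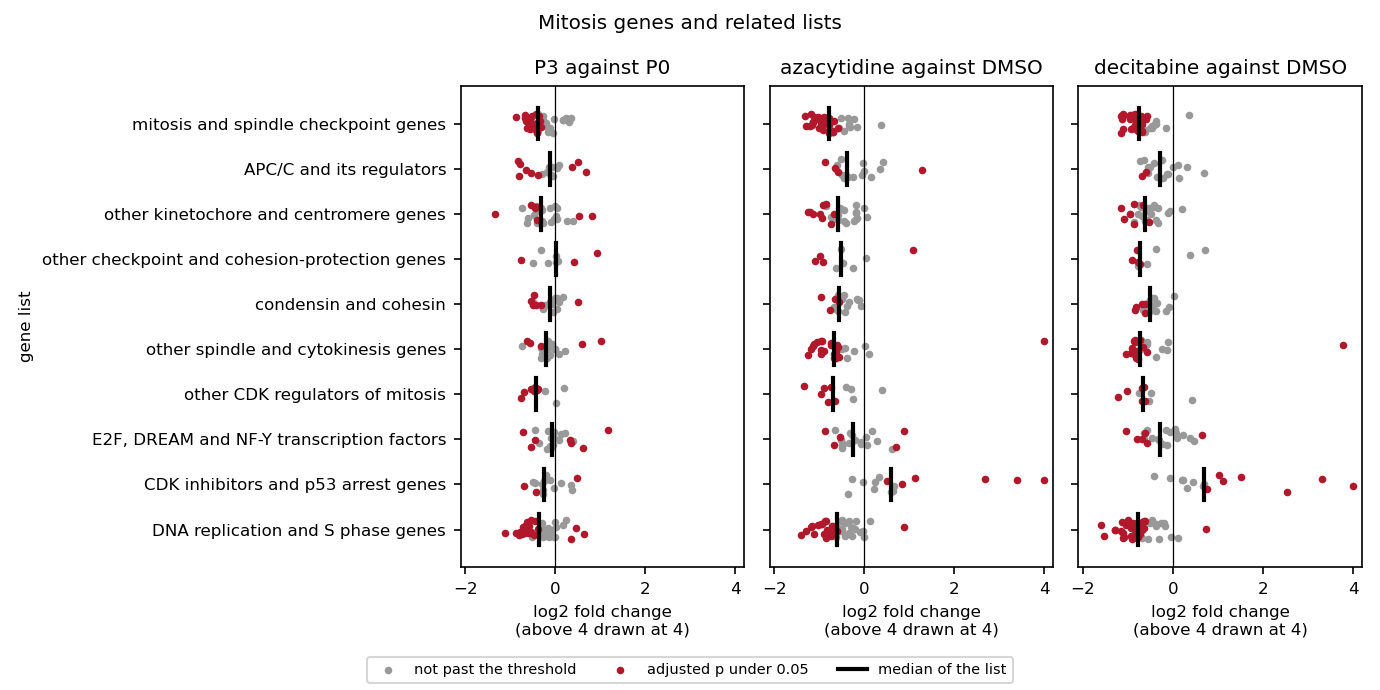
Log2 fold change of each tested gene (points, red where the adjusted p was under 0.05) in the mitosis set and 9 related lists, with the median of each list as a black bar, for P3 against P0, azacytidine against DMSO and decitabine against DMSO; values above 4 are drawn at 4. With the drugs the medians of the mitotic and replication lists lie below 0 and that of the CDK inhibitor list above 0.

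**Figure D5:**
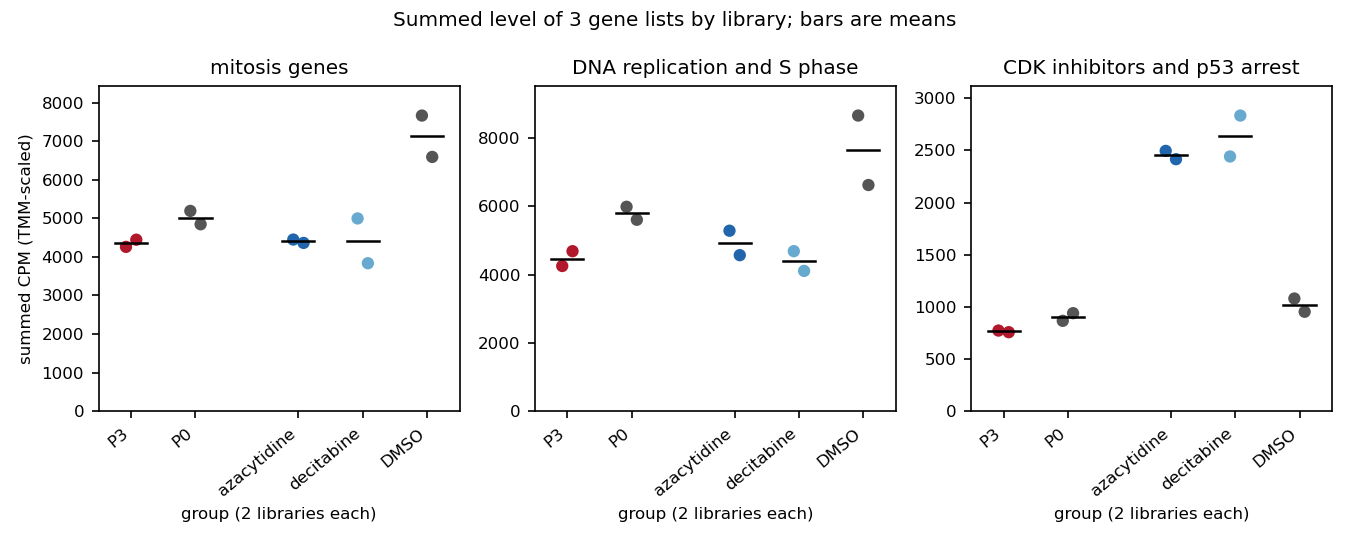
Summed TMM-scaled CPM (axis from 0) of the mitosis genes, the DNA replication genes and the CDK inhibitor and p53 arrest genes in each library (points), with group means as bars, 2 libraries per group. The drug libraries are below DMSO in the first 2 panels and above it in the third, and P3 is below P0 in all 3.

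The tumours also differed in the RNA of markers of other cells, which were not counted as cells. All 11 macrophage markers fell in P3, where they summed to 458 and 388 CPM, with 1619.8 and 1950.0 CPM in P0, and none was at 0 in any tumour library. All 7 B-cell markers fell, with 1 at 0 in the first P3 library, and summed to 28.4 and 28.6 CPM in P3 tumours, with 191 and 367 CPM in P0, and 5 of 7 dendritic markers fell. Of 7 fibroblast markers 2 fell and 1 rose, with sums of 1670.0 and 1023 CPM in P3 and 2862 and 2928 CPM in P0. Neutrophil markers were at 13.7 and 54.0 CPM in P3 and 3.83 and 4.34 CPM in P0, with 3 of 5 tested higher. Endothelial markers (0 of 6 called, 2 libraries per group) summed to 233 and 157 CPM in P3 and 223 and 225 CPM in P0, and of 4 erythroid markers tested 1 rose and 2 fell. T-cell markers gave 2 lower and 0 higher of 9. Of all genes tested, 19.9% were lower and 18.8% higher in P3. The counts of lower T-cell and fibroblast markers are near that share. The part of such cells in the P3 values was not tested. In EG7-OVA cells macrophage markers summed to 42.3 and 34.8 CPM with azacytidine, 60.9 and 51.3 with decitabine and 26.9 and 26.8 with DMSO, with 4 of 8 tested higher and 0 lower with either drug, and 3 of 4 fibroblast markers tested were higher with either drug. Of all genes tested, 13.6% were higher with azacytidine and 12.4% with decitabine. The part of these markers in the drug values was not tested.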

How the data were processed

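RNA was extracted with Trizol and sequenced on an Illumina protocol, per the labels' protocols. The tumour files hold counts per gene as the authors deposited them. The EG7 file holds estimated counts per gene deposited by the authors, with 145 values in 62 of 55969 entries not whole and none in a member, and these were rounded. The submitters' processing notes name fastp, Trim Galore, STAR, featureCounts, mm10 and GRCh38, with versions and roles not given there. The human NKYS libraries were not used.

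Each table was fitted with edgeR 4.0.16 in R 4.3.3 (filterByExpr, TMM, quasi-likelihood test, Benjamini-Hochberg over all genes tested, threshold 0.05), with the 3 EG7 groups in one fit. SE is the log2 fold change over the square root of F. Alternatives used DESeq2 1.42.0, limma-voom 3.58.1, other scalings and filters, a replicate block and leaving out each library. All 40 members could be named, and of other lists the 3 genes of smallest p per comparison plus Cdkn1a, Mybl2, E2f1, Ube2c and Uhrf1. Members and lists were chosen with earlier results of these data known. The code was tested on simulated data.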

Additional observations from a re-analysis of the deposited data

How the results depend on the processing

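Against 20 tumour calls, 12 were made with a replicate block, and leaving out 1 library gave 0 to 31 in edgeR and 0 to 20 in DESeq2, an alternative chosen after seeing the data. Against 30 calls each, leaving out 1 library gave 8 to 31 for azacytidine and 4 to 31 for decitabine. With the replicate block 30 members were called with azacytidine and 28 with decitabine, and with the DMSO numbers crossed, also chosen after seeing the data, 30 and 32. With only the 4 libraries compared in the fit, 31 were called with azacytidine and 21 with decitabine. Same-numbered libraries deviated from their group means together in 1 of 4 comparisons (correlation -0.04 in tumours, -0.26 for azacytidine and DMSO, -0.20 for decitabine and DMSO, against 0.27 for azacytidine and decitabine), and DMSO titles and library names number differently, so the numbers are not shown to pair libraries. With 2 libraries per group, crossing the DMSO numbers reverses the sign of both DMSO correlations. Every EG7 correlation would then be positive, so these values cannot show that the EG7 libraries were unpaired. Azacytidine against decitabine gave 0 members in every setting run. In tumours Cenpa turned to 0.0038 under library totals and 0.014 with the exon length offset, and Cenpe to 0.034 under library totals. Leaving out 1 library moved Cenpe between -0.11 and 0.049 in edgeR, with turned values of 0.0051 and 0.054 in DESeq2, and Anln between -0.0887 and 0.41 in edgeR and down to -0.0832 in DESeq2. It moved Spc25 with decitabine between -0.43 and 0.031, and, for azacytidine against decitabine, Bub1 between -0.66 and 0.059 and Hmmr between -0.71 and 0.073. The cause was not tested. The 2 libraries per group limit every test. Member calls in these alternative fits are given here without the calls over all genes. They therefore do not show that mitosis genes lost or gained calls more than other genes. Within a group a gene's own spread rests on 1 difference, which the fits pool over groups and moderate across genes.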
